A study of Drosophila melanogaster with 30 samples.

Results

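Flies that had received unpaired training and expressed the CrebB methylation reporter from 24 h to 48 h afterwards (time interval 2, TI-2) were compared with naive, untrained flies. The members were chosen by their labels, as the 3 unpaired TI-2 replicates and the 3 naive replicates, which are 12 of the 30 libraries and 6 of the 15 log2 ratio profiles of the series. The series used Targeted DamID (TaDa) in adult Drosophila melanogaster heads, with a Dam::CrebB library and a Dam-only library behind each profile. Unpaired TI-2 flies met odour and sucrose separated in time, so that no association was formed, were trained at 18°C and were shifted to 29°C for the interval. Naive flies received no training, and their labels give a time of 0 and no interval. In both groups the fly genotype was mb247-Gal4 with UAS-Dam::CrebB or UAS-Dam, under control of the temperature-sensitive repressor tubGal80ts, which is inactive at 29°C. The mb247 driver limits expression to the Mushroom Bodies (MBs), but DNA was taken from pools of 50 to 100 whole heads, for which the labels give the tissue as brain. Odour exposure, starvation and sucrose during training, and the hour of induction, cannot be told apart in this comparison.

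CrebB is the fly CREB, a bZIP transcription factor that binds cAMP response elements and is known for its role in long-term memory. In DamID, the Dam methylase fused to a DNA-binding protein marks adenines in GATC sites near the places where that protein sits, and Dam alone marks open chromatin. The log2 ratio, with Dam::CrebB on top and Dam-only below, therefore exceeds 0 where the fusion methylated a fragment between GATC sites more than Dam alone did, and it measures methylated DNA and not RNA.

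Each gene was given the mean log2 ratio of the fragments overlapping its body, weighted by fragment length. Of 17802 genes with at least 1 fragment, 17480 were not at 0 in every profile of the series and were tested, with a median of 8 fragments per gene. The files hold ratios and no read counts, so the depth behind each value is unknown and 3 profiles per group limit the precision. Unpaired TI-2 replicate 3 stood apart from the other 5 profiles, with a Pearson's r across genes between 0.64 and 0.74, whereas all other pairs lay between 0.86 and 0.95. Genes are not independent replicates. Because unpaired TI-2 replicate 3 stood apart, several results are given with and without it. Results given only with it can also depend on it.

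No gene passed the threshold, which asked for an adjusted p below 0.01 together with a difference larger than 0.2 in either direction. With limma, 0 of 17480 genes were called higher and 0 were called lower in unpaired TI-2 flies, and the smallest adjusted p was 0.481. With p below 0.05 before adjustment and that same minimum difference, 559 genes were higher (3.2%) and 574 were lower (3.28%) in unpaired TI-2 than in naive flies. Without unpaired TI-2 replicate 3 these counts were 268 and 268, and without other single profiles they lay between 147 and 1015 higher and between 179 and 1699 lower. The 3 unpaired TI-2 values lay above all 3 naive values at 1909 genes (10.9%) and below all of them at 976 genes (5.58%). After centring each profile on its median, these numbers were 1324 (7.57%) and 1355 (7.75%), and those at the unadjusted p were 508 (2.91%) and 898 (5.14%), so the split between higher and lower genes depended on the centring. The median difference over all genes was 0.004 on the log2 scale. Since no gene was called, the genes below are described by their values in each profile, and each of them had an adjusted p of 0.481 or higher in limma.

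**Figure D1:**
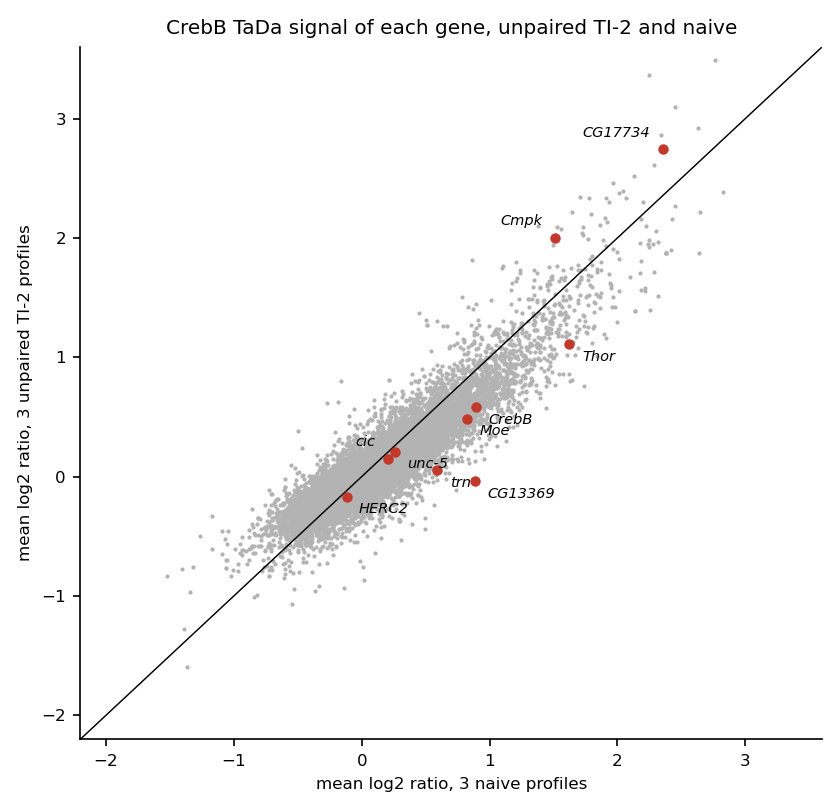
Mean log2 ratio of each of the 17480 genes in the 3 unpaired TI-2 profiles (vertical axis) and in the 3 naive profiles (horizontal axis), with the line of equal values. Named genes are marked in red. Moe, Thor, trn and CG13369 lie below the line and CG17734 and Cmpk above it.

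Among genes with at least 5 fragments, the smallest p in the lower direction belonged to CG17026, Vps20, trn, CG5326, CG13601, CG10053, Srg3 and CTCF. trn encodes Tartan, a transmembrane protein with leucine-rich repeats known for cell affinity and axon pathfinding. It lies at 3L:13114271-13118077, and its log2 ratio was 0.16, 0.01 and -0.01 in the unpaired TI-2 profiles, against 0.43, 0.67 and 0.67 in the naive profiles. The groups did not overlap, and the difference was -0.54 ± 0.09 (SE, n = 3 each), or -0.12 with an unweighted mean over fragments. CG17026 had -0.06, 0.09 and -0.03 in unpaired TI-2 flies and 0.39, 0.38 and 0.38 in naive flies, a difference of -0.38 ± 0.05 (SE). CG17026 lies inside brm, with which it shares its fragments. CG5326 had the highest level of the 8, at 0.55, 0.44 and 0.44 in the unpaired TI-2 profiles and at 0.76, 0.94 and 0.88 in the naive ones.

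Vps20, a subunit of the ESCRT-III membrane remodelling complex, had -0.25, -0.24 and -0.26 in unpaired TI-2 flies, against 0.04, -0.02 and 0.02 in naive flies. The naive values were near 0, and the unpaired TI-2 values were on the side of Dam-only methylation. This difference of -0.27 was -0.01 with an unweighted mean over fragments, and 2 of the 7 fragments of Vps20 were lower and 3 higher without overlap. CTCF, an insulator protein gene, differed by -0.30 ± 0.06 (SE), with 0.12, -0.02 and -0.02 in unpaired TI-2 flies and 0.26, 0.35 and 0.37 in naive flies. The remaining 3 differences of these 8 genes were -0.31 for CG13601, -0.40 for CG10053 and -0.35 for Srg3. All 8 genes kept groups without overlap, and without unpaired TI-2 replicate 3 their differences lay between -0.51 for trn and -0.26 for Vps20.

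In the higher direction the smallest p belonged to CG4650, CG4218, CG15120, CG34295, CG4382, CG11634, CG6576 and RpL9. All 8 were negative in all naive profiles and higher in unpaired TI-2 flies. CG4218 had -0.10, -0.04 and -0.03 in the unpaired TI-2 profiles, against -0.28, -0.48 and -0.37 in the naive ones, a difference of 0.32 ± 0.06 (SE, n = 3 each). CG4650 had -0.15, -0.16 and -0.11 in unpaired TI-2 flies and -0.34, -0.45 and -0.40 in naive flies. CG34295 was the member with the largest difference, 0.39, and had values of -0.03, 0.23 and 0.12 in unpaired TI-2 flies and -0.26, -0.37 and -0.23 in naive flies. RpL9, which encodes a protein of the large ribosomal subunit, had -0.01, 0.00 and -0.04 in unpaired TI-2 flies and -0.18, -0.20 and -0.23 in naive flies. The difference of RpL9 was 0.19, under the size threshold.

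**Figure D2:**
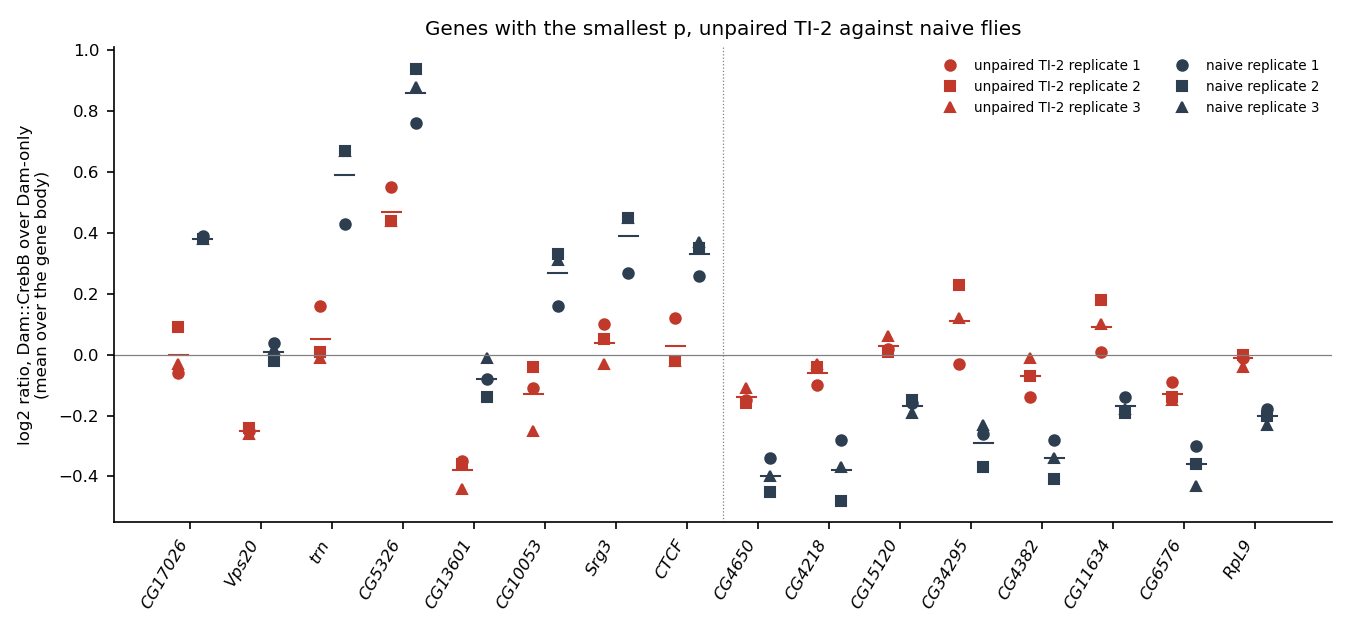
Log2 ratio (Dam::CrebB to Dam-only) in each of the 6 profiles for the 16 genes with the smallest p, 8 lower and 8 higher in unpaired TI-2 flies. Each symbol is 1 profile (unpaired TI-2 in red on the left, naive in dark blue on the right) and the short lines are the means of 3. The groups do not overlap in any of the 16 genes, and the 8 higher genes are negative in all naive profiles.

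Values along the gene bodies showed which fragments carried these differences. Of all 336685 fragments tested, 10.5% were higher and 3.71% lower without overlap. Neighbouring fragments are not independent, and the genes shown were named for a small p on the same values. In trn, 3 of 24 fragments lay lower in all unpaired TI-2 profiles than in all naive profiles, and they were the first 3 from the end with the lower coordinate. At the outermost fragment the log2 ratio was 0.67, 0.12 and 0.16 in unpaired TI-2 flies, against 1.36, 2.13 and 2.33 in naive flies. The next fragment had 0.42, 0.05 and 0.02 in unpaired TI-2 flies and 1.39, 1.28 and 1.57 in naive flies. Over the rest of the gene the groups overlapped, and the lowest value, -0.61, was that of unpaired TI-2 replicate 3. CrzR, the receptor of the neuropeptide corazonin, differed by 0.21 ± 0.05 (SE) over the gene, and 15 of its 24 fragments were higher without overlap. In its deepest stretch, the fragment centred 0.942 kb from the lower-coordinate end had 0.28, -0.61 and 0.96 in unpaired TI-2 flies, against -0.77, -1.81 and -0.90 in naive flies. The unpaired TI-2 profiles disagreed among themselves in sign at this fragment, with replicate 2 negative.

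Moe and Tm2 showed the same 2 directions over many fragments. Moe encodes Moesin, which links actin to the plasma membrane, and 12 of its 65 fragments were lower and 0 higher without overlap. The fragment centred 18.236 kb from the lower-coordinate end of Moe had 1.02, 0.99 and 0.76 in unpaired TI-2 flies and 1.15, 2.24 and 1.73 in naive flies. For Tm2, a muscle tropomyosin gene, 13 of 27 fragments were higher and 0 lower. At 1.472 kb the log2 ratio of Tm2 was -0.58, -0.21 and 0.31 in the unpaired TI-2 profiles and -0.66, -1.37 and -1.15 in the naive profiles.

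**Figure D3:**
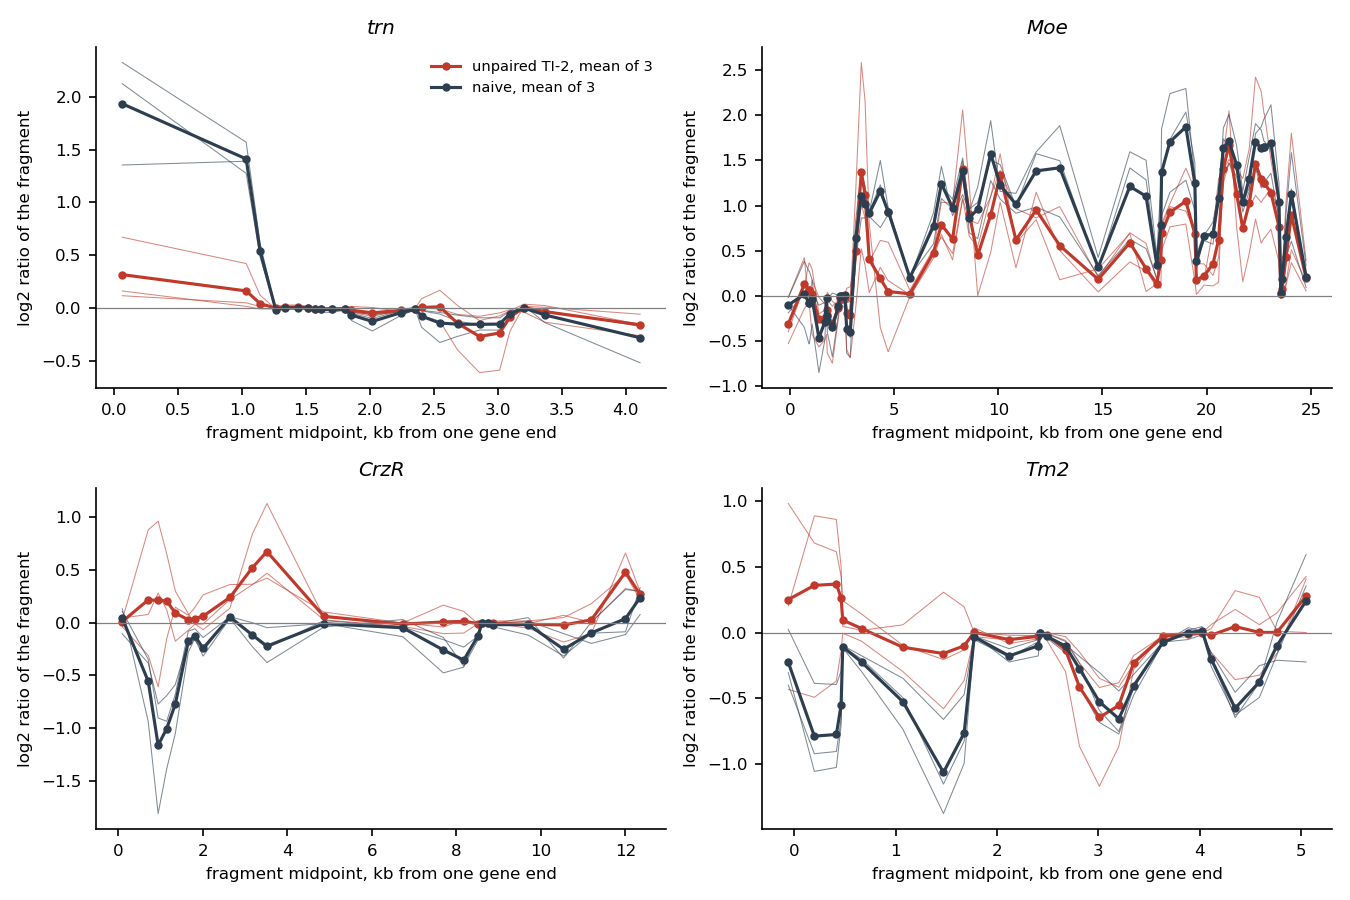
Log2 ratio of single fragments along trn, Moe, CrzR and Tm2, against the distance of the fragment midpoint from the gene end with the lower coordinate (kb). Thick lines with points are the means of the 3 unpaired TI-2 (red) and the 3 naive (dark blue) profiles, and thin lines are single profiles. The difference at trn sits in its first 3 fragments, and near that end the naive means at CrzR and Tm2 dip further below 0 than the unpaired TI-2 means, and past the middle of Tm2 both groups dip.

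The range of the signal differed between profiles more than between groups. The SD of the gene values was 0.35, 0.41 and 0.37 in unpaired TI-2 flies and 0.32, 0.49 and 0.48 in naive flies (exact permutation test, two-sided, p = 0.4). With 3 profiles against 3 the smallest p this test can give is 0.1. A log2 ratio above 0.2 was found at 24.2%, 34.2% and 22.2% of genes in unpaired TI-2 flies and at 24.2%, 33.0% and 35.3% in naive flies. Values below -0.2 were found at 13.7%, 11.9% and 16.1% of genes in unpaired TI-2 flies, and at 12.7%, 23.7% and 20% in naive flies (exact permutation test, p = 0.3). In the share below -0.2, naive replicate 1 lay among the unpaired TI-2 profiles, and naive replicates 2 and 3 lay above all of them.

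Genes were also classed by the 3 unpaired TI-1 profiles, which enter neither group. The 1544 genes above 0.5 in all of them had a median of 0.71, 0.86 and 0.65 in unpaired TI-2 flies, against 0.65, 0.95 and 1.02 in naive flies. In this class 10 genes were higher without overlap (0.648%, against 10.9% of all genes) and 83 were lower (5.38%, against 5.58% of all genes). The 723 genes below -0.2 in all unpaired TI-1 profiles had medians of -0.36, -0.36 and -0.37 in unpaired TI-2 flies and -0.35, -0.53 and -0.47 in naive flies, with 97 genes higher (13.4%) and 13 lower (1.8%) without overlap. The medians of both classes in naive replicate 1 were level with those of unpaired TI-2 profiles, while those of naive replicates 2 and 3 were farther from 0. After quantile normalization the median difference of the class above 0.5 was -0.01, against -0.13 with the values as deposited. Of the 7385 genes between -0.2 and 0.2, 1372 were higher (18.6%) and 279 lower (3.78%) without overlap.

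**Figure D4:**
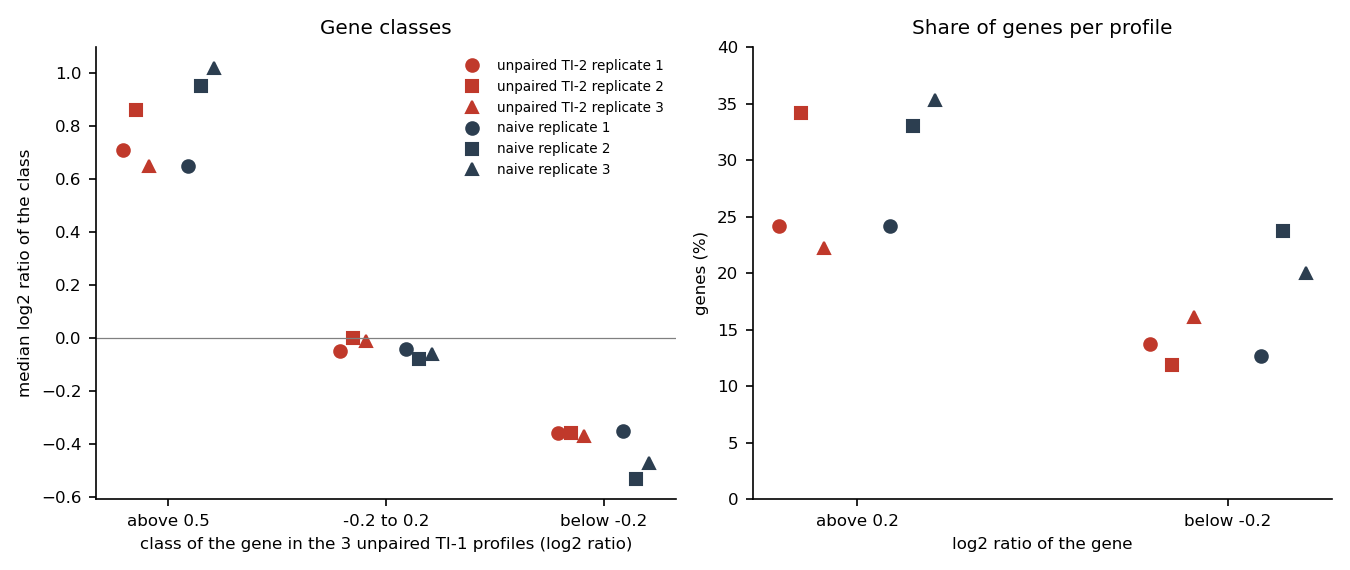
Left, median log2 ratio of 3 gene classes, set by the unpaired TI-1 profiles, in each unpaired TI-2 (red) and naive (dark blue) profile. Right, share of genes (%) with a log2 ratio above 0.2 or below -0.2 in each profile. Below -0.2, naive replicate 1 (circle) lies among the unpaired TI-2 profiles and naive replicates 2 and 3 above them.

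The 5 genes with the highest mean in unpaired TI-2 flies, among those with at least 5 fragments, were chosen after their values were seen. They were CG17734, Cmpk, scramb2, asRNA:CR45827 and Spn27A. Their means in naive flies were also high, from 1.51 for Cmpk to 2.35 for CG17734. The choice favours high values in unpaired TI-2 flies, so it cannot show whether the strongest genes kept their rank. CG17734 had log2 ratios of 2.27, 3.11 and 2.85 in unpaired TI-2 flies and 2.02, 2.41 and 2.63 in naive flies. Cmpk, a nucleotide kinase gene, had 1.69, 1.70 and 2.61 in unpaired TI-2 flies and 1.32, 1.62 and 1.61 in naive flies, and its difference of 0.49 was 0.18 without unpaired TI-2 replicate 3. The 5 largest differences in each direction among non-overlapping genes with at least 5 fragments were also read after the values were seen, and 4 of these 10 genes are given. CG13369 had 0.41, 0.18 and -0.70 in unpaired TI-2 flies, against 0.67, 0.95 and 1.03 in naive flies, and p38b, a stress-activated MAP kinase gene, had -0.61, -0.21 and -1.44 against -0.19, 0.17 and 0.05. In both genes unpaired TI-2 replicate 3 was the lowest profile, and without it the differences were -0.59 and -0.42, against -0.92 and -0.77 with it. In the other direction Cby had -0.07, 1.33 and 0.62 in unpaired TI-2 flies and -0.11, -0.21 and -0.24 in naive flies, a difference of 0.82 within a wide spread of the unpaired TI-2 profiles, and Sidpn had 0.21, 0.42 and 0.72 in unpaired TI-2 flies and -0.12, -0.24 and 0.05 in naive flies.

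Of 14 CREB family members and coactivators tested, 0 were called, 12 had a negative difference, and 1 was lower without overlap (7.14%, against 5.58% of all genes). The median difference was -0.11, against 0.00 over all genes, and was -0.05 after quantile normalization and -0.05 with the unweighted mean. CrebB itself, at X:18366357-18377864 with 33 fragments, had 0.62, 0.68 and 0.44 in unpaired TI-2 flies and 0.59, 1.19 and 0.91 in naive flies, so the groups overlapped (difference -0.31 ± 0.16, SE). The transgene carries CrebB coding sequence, and exons were not analysed here. crc, the fly ATF4, was the only member without overlap, at 0.32, 0.44 and 0.41 in unpaired TI-2 flies and 0.45, 0.54 and 0.63 in naive flies. The differences were -0.20 for Atf3, a stress-induced bZIP factor, and 0.21 for Atf6, which acts in the unfolded protein response, and both overlapped between groups.

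cAMP signalling, which lies upstream of CREB, had members on either side. Over 23 genes the median difference was 0.04 (0.00 after centring and division by the SD). Without overlap, 5 genes were higher (21.7%, against 10.9% of all genes) and 1 was lower (4.35%, against 5.58%). The adenylyl cyclase gene Ac3 had -0.14, 0.01 and 0.09 in unpaired TI-2 flies and -0.20, -0.31 and -0.20 in naive flies. A second cyclase gene, ACXC, differed by 0.21. rut encodes the calcium-sensitive cyclase known for its role in olfactory learning in the MBs, and it had 0.18, 0.17 and 0.08 in unpaired TI-2 flies, against 0.19, 0.46 and 0.38 in naive flies (difference -0.20 ± 0.08, SE). Calcium and calmodulin-dependent kinases and phosphatases had a median difference of -0.01 over 14 genes, none without overlap. CaMKII, on chromosome 4, had -0.29, -0.16 and 0.00 in unpaired TI-2 flies and -0.27, -0.26 and -0.25 in naive flies. Dopamine, octopamine, tyramine and serotonin receptors had a median of 0.04 over 17 genes, and only 5-HT7 was higher without overlap, by 0.13.

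The 4 memory genes of the study showed differences smaller than their standard errors. HERC2, a large ubiquitin ligase gene, had -0.03, 0.04 and -0.52 in unpaired TI-2 flies and -0.11, -0.13 and -0.12 in naive flies (limma, adjusted p = 0.902), and its difference of -0.05 was 0.13 without unpaired TI-2 replicate 3. cic, a transcriptional repressor of the receptor tyrosine kinase pathway, differed by -0.06 ± 0.07 (SE). esn, a relative of the planar polarity gene prickle, had 0.09, 0.04 and -0.05 in unpaired TI-2 flies, against 0.01, 0.06 and 0.12 in naive flies. unc-5, a netrin receptor gene, had 0.24, 0.17 and 0.22 in unpaired TI-2 flies and 0.17, 0.29 and 0.32 in naive flies, a difference of -0.05 ± 0.06 (SE).

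All 11 TI-2 genes that the study took into its RNAi screen had a negative difference, with a median of -0.19. The study chose them on libraries that include the unpaired TI-2 ones, so the list is no independent evidence of a direction. Moe was the only one without overlap, with 0.55, 0.56 and 0.35 in unpaired TI-2 flies and 0.63, 0.95 and 0.90 in naive flies (difference -0.34 ± 0.11, SE). coro, which encodes the actin-binding protein Coronin, had 0.71, 0.58 and 0.21 in unpaired TI-2 flies and 0.59, 0.96 and 1.03 in naive flies. The differences were -0.24 for Pfrx, an enzyme that controls glycolysis, and -0.19 for bves. The median of the list was -0.10 after quantile normalization and -0.13 without unpaired TI-2 replicate 3. The 12 TI-1 genes of the screen had a median of -0.06, or -0.01 without unpaired TI-2 replicate 3. C3G, a guanine nucleotide exchange factor, was the only one without overlap (difference -0.13).

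None of the genes of the actin cytoskeleton, the clock and neuronal activity was called. Rac, actin and forgetting genes had a median difference of -0.12 over 20 genes, 16 of them negative, which was -0.03 after quantile normalization. Of these, 0 were higher (against 10.9% of all genes) and 1 was lower (5%, against 5.58%) without overlap. Mtl, a Rac-like GTPase gene, had 1.16, 0.83 and 0.86 in unpaired TI-2 flies and 1.03, 1.55 and 1.45 in naive flies. Circadian clock genes had a median of -0.11 over 18 genes, which was -0.05 after quantile normalization and -0.06 without unpaired TI-2 replicate 3. Of these, 1 was higher, Pdfr (5.56%, against 10.9% of all genes), and 2 were lower (11.1%, against 5.58%) without overlap. The clock gene tim had -0.08, 0.01 and -0.01 in unpaired TI-2 flies and 0.03, 0.10 and 0.16 in naive flies without overlap, and vri, which encodes a clock repressor, had 0.84, 0.91 and 0.59 against 0.85, 1.12 and 1.13. Factors known to be induced by neuronal activity had a median of -0.10 over 12 genes, none without overlap, and the median was 0.01 after quantile normalization. Among them kay, the fly Fos, had 0.75, 0.74 and 0.55 in unpaired TI-2 flies and 0.67, 0.91 and 0.91 in naive flies.

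**Figure D5:**
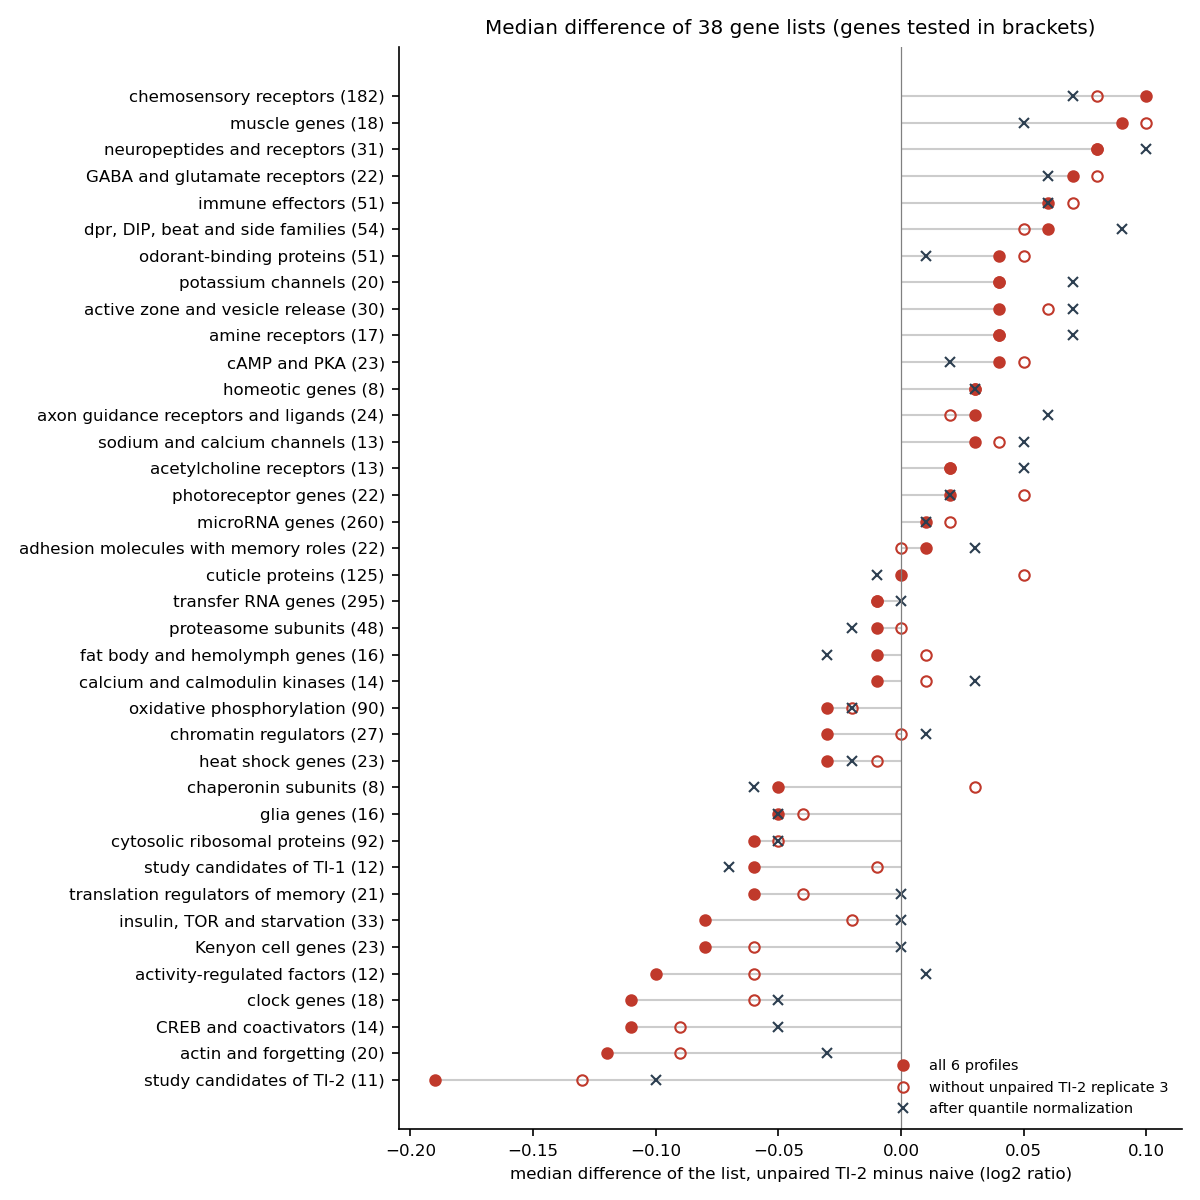
Median difference of the log2 ratio, unpaired TI-2 minus naive, for 38 gene lists, with the number of genes tested in brackets. Filled circles use all 6 profiles, open circles leave out unpaired TI-2 replicate 3, and crosses follow quantile normalization. Receptor, neuropeptide and muscle lists lie up to 0.10 above 0, and actin, clock, CREB and TI-2 candidate lists lie between -0.10 and -0.19.

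Genes known for Kenyon cells, the intrinsic neurons of the MBs, had medians of 0.16, 0.21 and 0.17 in unpaired TI-2 flies and 0.14, 0.37 and 0.38 in naive flies. The median difference over these 23 genes was -0.08, and 0.00 after quantile normalization. prt, a vesicular transporter gene of Kenyon cells, had 0.33, 0.24 and 0.21 in unpaired TI-2 flies and 0.33, 0.57 and 0.79 in naive flies. Glial genes had a median difference of -0.05 over 16 genes, with 0.15, 0.19 and 0.05 in unpaired TI-2 flies and 0.14, 0.18 and 0.22 in naive flies. Among them Eaat1, a glutamate transporter gene, had 0.28, 0.53 and 0.38 in unpaired TI-2 flies, against 0.52, 0.56 and 0.63 in naive flies. Photoreceptor genes had a median difference of 0.02 over 22 genes and fat body genes one of -0.01 over 16 genes. These are methylation ratios and not RNA levels, so the lists do not measure the share of each cell type in the DNA.

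Muscle genes are not known for a role in Kenyon cells. Without overlap, 8 of 18 were higher (44.4%, against 10.9% of all genes) and 0 were lower. The median difference of the muscle genes was 0.09, and 0.05 after quantile normalization. Their median was -0.10, -0.05 and -0.04 in unpaired TI-2 flies and -0.13, -0.21 and -0.20 in naive flies. Tm2 had -0.19, 0.05 and 0.04 in unpaired TI-2 flies and -0.31, -0.43 and -0.28 in naive flies (difference 0.30 ± 0.08, SE). TpnC41C, a troponin C gene, differed by 0.15 and Act57B, a muscle actin gene, by 0.10. The fat body list held members in both directions, with apolpp, the lipophorin precursor, at -0.32, -0.26 and -0.04 in unpaired TI-2 flies and -0.34, -0.54 and -0.50 in naive flies. Lsd-2, which coats lipid droplets, had 0.85, 0.62 and 0.54 in unpaired TI-2 flies and 0.85, 1.15 and 1.04 in naive flies. The part of these genes in the other differences was not tested.

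Odorant, gustatory and ionotropic receptors detect odours and tastes. Of 182 such chemosensory receptor genes tested, 54 were higher (29.7%, against 10.9% of all genes) and 1 was lower (0.549%, against 5.58%) without overlap. A positive difference was found at 156 of them, and the median difference was 0.10. Their median was -0.10, -0.06 and -0.01 in unpaired TI-2 flies and -0.11, -0.20 and -0.17 in naive flies, so naive replicate 1 lay level with unpaired TI-2 replicate 1. At the unadjusted p of 0.05 and the size of 0.2, 18 of the 182 were higher and 1 was lower. Of all genes, 3.2% were higher and 3.28% lower by that rule. Or94a, an odorant receptor gene, had -0.08, -0.08 and 0.00 in unpaired TI-2 flies and -0.18, -0.39 and -0.35 in naive flies. Its neighbour Or94b, which shares the host gene Nha2, had -0.12, 0.16 and 0.25 in unpaired TI-2 flies and -0.22, -0.33 and -0.24 in naive flies. Or88a differed by 0.25 and Or98a by 0.23. The median stayed between 0.08 and 0.12 when each profile was left out in turn, and was 0.07 after quantile normalization. Of all genes between -0.2 and 0.2 in the 3 unpaired TI-1 profiles, 18.6% were higher without overlap.

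Neuropeptides and their receptors had a median difference of 0.08 over 31 genes, with 10 higher (32.3%, against 10.9% of all genes) and 1 lower without overlap and 26 positive differences. CrzR had 0.05, 0.06 and 0.17 in unpaired TI-2 flies and -0.11, -0.16 and -0.08 in naive flies. AstA, which encodes the satiety peptide allatostatin A, had 0.12, 0.18 and 0.28 in unpaired TI-2 flies and 0.04, -0.02 and 0.03 in naive flies. CCHa1-R had -0.13, -0.03 and 0.02 in unpaired TI-2 flies and -0.15, -0.27 and -0.25 in naive flies. Pdfr, the receptor of the clock peptide PDF, had 0.07, 0.27 and 0.15 in unpaired TI-2 flies, against 0.01, -0.01 and 0.00 in naive flies.

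The dpr, DIP, beat and side families of cell surface receptors set synaptic partner recognition. Of 54 members, 18 were higher (33.3%, against 10.9% of all genes) and 0 lower without overlap, with a median difference of 0.06. The medians of this list, and of the muscle and neuropeptide lists, lay between -0.2 and 0.2 in all 3 unpaired TI-1 profiles. Of all genes in that range there, 18.6% were higher without overlap. beat-IIb had 0.18, 0.39 and 0.52 in unpaired TI-2 flies and 0.07, 0.03 and 0.13 in naive flies. Of its 45 fragments, 20 were higher without overlap, beside 10.5% of all fragments. dpr2 had -0.09, 0.00 and 0.00 in unpaired TI-2 flies and -0.15, -0.20 and -0.20 in naive flies. DIP-eta differed by 0.20 and DIP-theta by 0.13. Netrin, semaphorin, ephrin and Slit pathway genes had a median of 0.03 over 24 genes. Without overlap, 7 of them were higher (29.2%, against 10.9% of all genes) and 1 was lower (4.17%, against 5.58%). The Slit receptor gene robo2 had 0.03, 0.11 and 0.09 in unpaired TI-2 flies and -0.10, -0.13 and -0.03 in naive flies, whereas dock, an adaptor in axon guidance, had 0.07, -0.02 and -0.10 against 0.07, 0.25 and 0.23. Eph, on chromosome 4, differed by 0.23. Adhesion molecules with roles in learning had a median of 0.01 over 22 genes, with Nlg1, a neuroligin gene, higher by 0.15 and the integrin gene if lower by 0.15.

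Genes of synaptic transmission and excitability showed small differences, mostly positive. Presynaptic genes had a median difference of 0.04 over 30 genes, with 6 higher (20%, against 10.9% of all genes) and 0 lower without overlap. VGlut, the vesicular glutamate transporter, had -0.22, -0.21 and -0.13 in unpaired TI-2 flies and -0.29, -0.31 and -0.34 in naive flies. Snap25, a SNARE gene, had 146 of 572 tested fragments higher and 6 lower without overlap, at a gene-level difference of 0.10. Over all fragments the shares were 10.5% higher and 3.71% lower, and neighbouring fragments are not independent. GABA and glutamate receptors had a median of 0.07 over 22 genes, with 4 higher (18.2%, against 10.9% of all genes) and 0 lower without overlap. GluRIIE, a glutamate receptor subunit, had -0.44, -0.14 and -0.24 in unpaired TI-2 flies and -0.52, -0.56 and -0.55 in naive flies. For nicotinic and muscarinic acetylcholine receptors the median was 0.02 over 13 genes, and nAChRalpha4, with a difference of 0.15, was higher without overlap at 81 of 235 tested fragments and lower at 0.

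Sodium and calcium channel genes had a median of 0.03 over 13 genes. tipE, an auxiliary subunit of the voltage-gated sodium channel, had 0.34, 0.61 and 0.55 in unpaired TI-2 flies and 0.22, 0.31 and 0.27 in naive flies. Potassium channels had a median of 0.04 over 20 genes. Without overlap, 3 were higher (15%, against 10.9% of all genes) and 1 was lower (5%, against 5.58%). The lower one was Irk1, an inward rectifier, with 0.63, 0.57 and 0.34 in unpaired TI-2 flies and 0.63, 0.94 and 0.91 in naive flies. Irk1 overlaps cnc, so part of its fragments belong to both genes.

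Nutrient signalling genes had a median difference of -0.08 over 33 genes, which was 0.00 after quantile normalization and -0.02 without unpaired TI-2 replicate 3. Thor, the fly 4E-BP that represses translation under starvation, had 1.17, 1.30 and 0.86 in unpaired TI-2 flies and 1.27, 1.71 and 1.89 in naive flies (difference -0.51 ± 0.19, SE), with overlap at unpaired TI-2 replicate 2. Ilp2, an insulin-like peptide gene of the brain, had -0.06, -0.16 and -0.12 in unpaired TI-2 flies and -0.23, -0.31 and -0.26 in naive flies. bmm, a triglyceride lipase gene, had 0.41, 0.39 and 0.28 in unpaired TI-2 flies and 0.42, 0.62 and 0.63 in naive flies. The receptor gene of adipokinetic hormone, AkhR, differed by 0.16.

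Regulators of local translation had a median of -0.06 over 21 genes. Atx2, an RNA-binding protein gene, had 0.06, 0.01 and -0.10 in unpaired TI-2 flies and 0.13, 0.18 and 0.18 in naive flies, and Pabp2 differed by -0.35. Cytosolic ribosomal protein genes had a median of -0.06 over 92 genes. Without overlap, 3 were higher (3.26%, against 10.9% of all genes) and 8 were lower (8.7%, against 5.58%). RpL34a, with 3 fragments, had -0.02, -0.09 and -0.13 in unpaired TI-2 flies and 0.29, 0.56 and 0.47 in naive flies, a difference of -0.52 ± 0.08 (SE). Heat shock genes had a median of -0.03 over 23 genes. Hsc70-5, a mitochondrial chaperone gene, had -0.07, -0.10 and -0.12 in unpaired TI-2 flies, against 0.00, 0.20 and 0.12 in naive flies, while the small heat shock gene Hsp23 had -0.02, 0.18 and 0.09 against -0.07, -0.13 and -0.05. Proteasome subunits (-0.01 over 48 genes), oxidative phosphorylation genes (-0.03 over 90 genes), chromatin regulators (-0.03 over 27 genes) and chaperonin subunits (-0.05 over 8 genes) had medians close to that of all genes. The chaperonin median was 0.03 without unpaired TI-2 replicate 3.

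At the level of single GATC fragments, limma called 0 of 336685 fragments higher and 0 lower, and the smallest adjusted p was 0.607. With the unadjusted p below 0.05 and the same minimum difference, 13387 fragments were higher (3.98%) and 5559 lower (1.65%). Leaving out unpaired TI-2 replicate 3 gave 7584 and 3962. Groups did not overlap at 35505 fragments that were higher (10.5%) and 12475 that were lower (3.71%). Neighbouring fragments are not independent. The smallest p in the lower direction was found in Sec3, an exocyst subunit gene, at 3L:17424215-17424809, with -0.74, -0.74 and -0.70 in unpaired TI-2 flies and -0.19, -0.17 and -0.24 in naive flies. A fragment in CG42268 at 3L:9754946-9755311 had 0.11, 0.05 and 0.00 in unpaired TI-2 flies and 0.58, 0.56 and 0.57 in naive flies. Among higher fragments, l(3)80Fg at 3L:25957767-25958196 had -0.30, -0.21 and -0.20 in unpaired TI-2 flies, against -0.78, -0.85 and -0.78 in naive flies, and beat-IIIc at 2L:17260426-17260479 had -0.22, -0.07 and -0.23 against -0.87, -0.85 and -0.82. All of these had an adjusted p of 0.607 in limma.

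The highest single sites were chosen by their mean over the unpaired TI-2 profiles, which favours high values in that group, so they describe levels and not a difference. The top fragment of the group mean, in lncRNA:CR44679 at 3L:20105157-20105537, had 4.12, 6.73 and 6.39 in unpaired TI-2 flies and 3.8, 4.06 and 4.83 in naive flies. A fragment in sr at 3R:18121387-18121783 had 3.14, 4.99 and 5.66 in unpaired TI-2 flies and 2.20, 3.01 and 3.67 in naive flies. sr encodes Stripe, the fly Egr factor, known as an activity-regulated gene in neurons. CG17734 held a fragment of 3.35, 5.11 and 5.09 in unpaired TI-2 flies and 2.65, 3.11 and 3.74 in naive flies, at 3R:11243554-11243913. Next to CG6675, the fragment at 2L:22108529-22108905 had 4.0, 4.59 and 4.94 in unpaired TI-2 flies and 3.13, 3.39 and 3.86 in naive flies, and was the only one of these without overlap. Fragments above 2 numbered 1704, 5018 and 3687 in unpaired TI-2 flies and 663, 3240 and 4775 in naive flies (exact permutation test, two-sided, p = 0.7). Fragments below -2 numbered 1, 21 and 480 in unpaired TI-2 flies and 13, 145 and 10 in naive flies, so most of the strongly negative ones came from unpaired TI-2 replicate 3.

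The same unpaired TI-2 profiles were also tested against the unpaired TI-1 profiles, which come from 3 h before to 24 h after training. In limma, 0 genes were called higher and 0 lower in TI-2, with a smallest adjusted p of 0.554. Before adjustment, with p below 0.05 and the same minimum difference, 0 genes were higher (0%) and 1029 lower (5.89%) in unpaired TI-2 than in unpaired TI-1 flies. Leaving out unpaired TI-2 replicate 3 gave 13 and 813. Without overlap, 69 genes were higher (0.395%) and 2195 lower (12.6%), and after centring 740 were higher and 1328 lower. Among the 8 lower genes with the smallest p against naive flies, differences from unpaired TI-1 flies ran from -0.33 for CTCF to -0.03 for Srg3, with -0.20 for trn. Among the 8 higher genes they ran from -0.15 for CG15120 to 0.20 for CG34295, with 0.00 for CG4650 and 0.03 for CG4218. Chemosensory receptors had a median difference of 0.02 and neuropeptides one of 0.00 between unpaired TI-2 and unpaired TI-1 flies. The naive and the unpaired TI-1 comparisons share the unpaired TI-2 profiles.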

How the data were processed

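The authors ran the damid pipeline on R1 reads only, against release 6 of the fly genome. It extended the aligned reads, binned and normalized them, and used pseudocounts. Each deposited profile holds, per replicate, a log2 ratio (Dam::CrebB to Dam-only) for every GATC fragment, whose median length is 197 bp. Between 18.4% and 20.9% of the fragments in these 6 profiles are listed at exactly 0. The unpaired TI-2 files write chromosome names without a prefix and the naive files with one, so a difference in processing run and the group cannot be told apart. The deposited gene lists hold the authors' own calls and were not used.

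Gene bodies came from a RefSeq table of release 6, which gives no strand or exons. Overlapping genes share fragments. Differences (unpaired TI-2 minus naive) were tested with limma 3.58.1 in R 4.3.3 (lmFit, eBayes, two-sided, Benjamini-Hochberg over all genes or fragments). In simulated data 200 of 17480 genes, all with at least 5 fragments, were changed by 0.5, 1, 1.5 or 2 together. With this mix limma recovered 20% of genes changed by 0.5 and 68% of those changed by 1. The simulated noise was independent between genes, without a deviation of a whole profile such as that of unpaired TI-2 replicate 3. These rates therefore do not carry over to these data. The paper calls the replicates biological, but nothing in the sources used here says that they came from separate crosses. The p-values therefore measure only the spread between these samples. Summaries used Python 3.11.15 with pandas 2.3.3, and plots matplotlib 3.10.9.

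Named genes were the 8 with the smallest p per direction among those with at least 5 fragments, CrebB, 4 genes of the study, and up to 4 members per list with the smallest p. The members and the 38 lists were chosen with earlier results of these data known, and the pattern for cuticle genes was narrowed after it had taken in other genes. Of the listed names, 11 were matched through a synonym and 7 were not matched. Alternatives were each profile left out, a replicate block, a fit of all 15 profiles, an unweighted mean, centring, division by the SD, quantile normalization, a minimum of 5 fragments, fragments at 0 left out, gene bodies extended by 1 kb, a prior variance following the number of fragments, an adjusted p of 0.05 and no minimum difference.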

Additional observations from a re-analysis of the deposited data

How the results depend on the processing

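Every setting gave 0 genes and 0 fragments at the threshold, with a smallest adjusted p from limma between 0.173 (without naive replicate 1) and 0.905 (without naive replicate 2) for genes. At an unadjusted p under 0.05 and a difference above 0.2, leaving out 1 profile gave 147 to 1015 higher and 179 to 1699 lower genes, with the lowest counts without naive replicate 2 and the highest without naive replicate 1. Without unpaired TI-2 replicate 3 they were 268 and 268. A fit of all 15 profiles gave 277 and 233, genes with at least 5 fragments 360 higher, the unweighted mean 294 lower and centring 898 lower. Centring, division by the SD and omission of unpaired TI-2 replicate 3 together, added after seeing the data, gave 359 higher and 559 lower genes. For fragments, leaving out 1 profile gave 5422 to 21543 higher and 2600 to 13313 lower. Against unpaired TI-1 flies, leaving out 1 profile gave 0 to 44 higher genes, centring 8 and the replicate block 2. The labels name no link between same-numbered unpaired TI-2 and naive profiles, whose deviations were correlated at -0.025, 0.259 and -0.003. With 3 profiles per group these values cannot show whether such profiles share a batch. With the replicate block, 529 genes were higher and 534 lower than in naive flies at the unadjusted p. Of 1432 values of 179 genes with each profile left out, centring or the unweighted mean, 11 changed sign. Quantile normalization gave unpaired TI-2 minus naive differences of 0.02 for unc-5 and 0.05 for Spn27A, and division by the SD gave 0.13 for scramb2 and 0.16 for Spn27A, which all have the other sign. Leave-one-out ranges were -0.16 to 0.13 for HERC2, -0.06 to 0.00 for esn, -0.39 to 0.04 for Sry-delta, -0.20 to 0.07 for CCT5, -0.24 to 0.05 for scramb2, -0.11 to 0.24 for asRNA:CR45827 and -0.15 to 0.10 for Spn27A, and scramb2 had 0.09 with the unweighted mean. The causes were not tested. Depth is unknown, so no limit of detection can be given.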

Other observations

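The chromosomes differed little between the groups. On chromosome 4, which is rich in heterochromatin, 14 of 114 genes were higher without overlap (12.3%, against 10.9% of all genes) and 0 were lower, and the median gene value was -0.20, -0.07 and 0.03 in unpaired TI-2 flies and -0.16, -0.17 and -0.10 in naive flies. The spread within the unpaired TI-2 group exceeded that difference. On chromosome X, 210 genes were higher (7.93%) and 249 lower (9.40%) without overlap, against 10.9% and 5.58% of all genes. The median difference on X was -0.03, and 0.00 without unpaired TI-2 replicate 3. On 2L, 473 genes were higher (14%) and 131 lower (3.88%) without overlap, with a median difference of 0.02. The 93 genes of chromosome Y were near 0 in all 6 profiles. Of 69941 fragments outside gene bodies, 16.2% were higher and 2.27% lower without overlap, against 9.07% and 4.08% of the 266744 fragments in gene bodies.

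Small gene families held a few members with groups far apart. Odorant-binding protein genes had a median difference of 0.04 over 51 genes, and Obp56e, with 4 fragments, had -0.14, -0.12 and -0.27 in unpaired TI-2 flies and 0.25, 0.25 and 0.18 in naive flies (difference -0.41 ± 0.06, SE). Immune effector genes had a median of 0.06 over 51 genes. Without overlap, 9 were higher (17.6%, against 10.9% of all genes) and 1 was lower (1.96%, against 5.58%). BomS1, a Toll-induced peptide gene, had -0.29, -0.43 and -0.17 in unpaired TI-2 flies and -0.68, -0.82 and -0.47 in naive flies. The 8 homeotic genes had a median difference of 0.03. Of them, 4 were higher (50%, against 10.9% of all genes) and 1, Dfd, was lower (12.5%, against 5.58%) without overlap. Dfd had 0.09, 0.12 and 0.08 in unpaired TI-2 flies, against 0.22, 0.47 and 0.38 in naive flies. Abd-B, Ubx and Antp were among the higher ones, by 0.09, 0.08 and 0.05. Of 260 microRNA genes tested, 36 were higher (13.8%, against 10.9% of all genes) and 8 lower (3.08%, against 5.58%) without overlap, and mir-288, whose value rests on 1 fragment shared with lncRNA:CR44909, had -0.04, 0.28 and 0.49 in unpaired TI-2 flies and -0.39, -0.65 and -0.36 in naive flies. mir-4975, which lies in chk, had -0.41, -0.46 and -0.42 in unpaired TI-2 flies and -0.14, -0.15 and -0.08 in naive flies. Transfer RNA genes (median -0.01 over 295 genes) and cuticle protein genes (0.00 over 125 genes) had medians near that of all genes, and Cpr62Bb, a cuticle protein gene, had 0.26, 0.38 and 0.13 in unpaired TI-2 flies and 0.53, 0.90 and 0.69 in naive flies. All of these had an adjusted p of 0.481 or more in limma.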
